A study of Rattus norvegicus with 6 samples.

Results

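Interferon-stimulated genes are the transcripts that cells raise when interferons, the cytokines of antiviral defence, reach their receptors. The set described here was chosen by gene symbol and names 55 genes under 56 symbols, since Ddx58 is the older name of Rigi. Of these, 47 were matched to a named probe set of the array, among 15037 named genes in all. Rigi, Samd9l, Gbp1, Gbp4, Herc6, Parp12, Ifi44l and Xaf1 were not analysed here.

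The arrays measured total RNA of primary hepatocytes, the parenchymal cells of the liver, from male Sprague-Dawley rats 8 weeks old. The cells were plated on rat tail collagen I in William's E medium with fetal bovine serum and antibiotics. Cultures of the TMAO group (n = 3) received 50 µM trimethylamine N-oxide for 30 h, and cultures of the Control group (n = 3) were left untreated. The labels call them biological repeats but do not say whether they came from separate animals or isolations. The p-values thus rest only on the spread between these arrays. Trimethylamine N-oxide (TMAO) is made in the liver from trimethylamine, a product of gut microbes. The labels name no interferon treatment in either group.

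Type I interferons bind the receptor pair encoded by Ifnar1 and Ifnar2, whose kinases phosphorylate STAT2. STAT2 and IRF9 belong to a complex that binds the interferon-stimulated response element (ISRE) in the promoters of its targets. Targets of interferon gamma carry another element, the gamma-activated site (GAS). Hepatocytes carry both receptors, and they hold a low basal level of many of these transcripts without infection.

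The letters of both elements were looked for in the promoter windows of RefSeq, which run from 250 bases before to 50 bases after the gene start on the rat assembly GRCr8. The ISRE core was searched as GAAA, NN and GAAA in a row and the GAS as TTCNNNGAA, each on both strands, and the GAS letters read the same on either strand. Promoter windows were given for 37 of the 47 members. The ISRE letters stood in 25 of these, or 67.6%, against 3.39% of 12435 windows of named genes on the array and 3.77% of all 27457 windows. The GAS letters stood in 12 of the 37, or 32.4%, against 7.86% of named genes on the array and 8.68% of all windows. Of the members, 8 windows held both and 8 held neither. In 18 of the 25 the first ISRE match lay within the last 100 bases before the start. A match is a string of letters and not a measured binding site.

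The windows below belong to the 4 members that held the ISRE letters and varied most between arrays of one group, and they show where the element lies beside the values given later. Capitals mark the ISRE letters, which read TTTC, NN and TTTC where the match is on the other strand. Rsad2 lies at chr6:48788071-48788370 on the minus strand, with its match beginning 147 bases before the start. The Oas1b window is chr12:41395803-41396102 on the minus strand, and that of Oas1a is chr12:41330216-41330515 on the plus strand. Both hold 2 overlapping matches, which begin 59 and 53 bases before the start in Oas1b and 41 and 35 bases before it in Oas1a. Ifit3 lies at chr1:241527076-241527375 on the plus strand, with its match 44 bases before the start.
Rsad2: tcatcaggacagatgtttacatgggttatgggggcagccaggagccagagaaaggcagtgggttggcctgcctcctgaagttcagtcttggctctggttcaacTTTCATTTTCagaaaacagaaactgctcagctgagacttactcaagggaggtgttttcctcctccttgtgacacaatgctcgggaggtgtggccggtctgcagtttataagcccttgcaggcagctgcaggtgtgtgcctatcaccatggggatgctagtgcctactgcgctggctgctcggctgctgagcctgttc
Oas1b: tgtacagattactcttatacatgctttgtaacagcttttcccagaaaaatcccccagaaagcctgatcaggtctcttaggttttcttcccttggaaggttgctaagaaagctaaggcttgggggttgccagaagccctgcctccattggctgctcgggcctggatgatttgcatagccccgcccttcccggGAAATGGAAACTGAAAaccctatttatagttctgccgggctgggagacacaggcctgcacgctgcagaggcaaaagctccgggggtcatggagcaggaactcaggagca
Ifit3: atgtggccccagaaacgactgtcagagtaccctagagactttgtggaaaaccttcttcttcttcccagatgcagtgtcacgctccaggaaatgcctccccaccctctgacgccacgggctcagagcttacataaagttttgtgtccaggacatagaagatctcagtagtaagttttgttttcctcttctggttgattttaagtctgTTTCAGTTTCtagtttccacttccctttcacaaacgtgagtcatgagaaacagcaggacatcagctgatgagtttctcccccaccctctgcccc
Oas1a: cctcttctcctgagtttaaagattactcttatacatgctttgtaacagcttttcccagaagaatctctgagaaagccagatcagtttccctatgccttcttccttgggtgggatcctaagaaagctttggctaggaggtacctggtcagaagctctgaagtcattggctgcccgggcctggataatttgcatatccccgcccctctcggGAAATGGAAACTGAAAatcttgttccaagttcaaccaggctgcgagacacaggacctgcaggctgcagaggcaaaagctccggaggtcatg

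Median log2 signals lay between 5.53 and 5.61 on the 6 arrays. The 1153 negative control probe sets had a median of 3.95. A member is called low here when its mean lay less than 1 log2 unit above that value, which held for 13 of the 47 members and left 34 above it, while 66.2% of all named genes lay above it. TMAO replicate 3 stood apart on the first principal component (30.8% of the variance), at 27.6 against -13.3 to -1.48 for the others. It also had the highest means of the hybridisation controls (9.84, against at most 9.64) and of the labelling controls (7.17, against at most 7.12). Of 14 hepatocyte markers, 13 lay above the negative controls, Alb among them at 11.82 to 11.97 on every array. Of 15 markers of T and NK cells, which make interferon gamma, 0 lay above that limit, as did 2 of 10 endothelial and 2 of 5 B cell and plasmacytoid dendritic cell markers. Stellate cell and fibroblast markers were above it for 5 of 11 genes and macrophage markers for 10 of 19. In such bulk samples, fewer cells of a type and less RNA per cell cannot be told apart.

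No interferon-stimulated gene passed the adjusted threshold between TMAO and Control. By limma, with p-values adjusted over all 15037 genes, 0 of 47 members passed, where 0.0266% of all genes did (4 genes, all higher). Adjusted p of the members ran from 0.856 to 0.998. At an unadjusted p under 0.05 by limma, 5 members were lower with TMAO and 0 were higher, against 2.48% and 3.01% of all genes. The 5 were Trim25, Lgals3bp, Ifitm1, Rtp4 and Irgm. Without TMAO replicate 1 this count of 5 fell to 0, and without Control replicate 2 it became 2.

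Small negative differences prevailed among the members. Of the 47, 33 had a lower mean with TMAO and 14 a higher one, where 51.0% of all genes had a lower mean. The median difference, TMAO minus Control, was -0.09 on the log2 scale over the members and 0.00 over all genes (-0.0035 before rounding). It came to -0.11 over the 34 members above the negative controls. The members' median difference was -0.01 without TMAO replicate 1 and -0.02 without TMAO replicate 2. Their count of lower means was 25 without TMAO replicate 1 and 35 without TMAO replicate 3. Lower means were also found for 11 of 14 hepatocyte markers (median difference -0.08), 8 of 10 endothelial markers (-0.12) and 15 of 19 macrophage markers (-0.13). The same held for 11 of 15 T and NK cell markers (-0.04), all of them low, and for 7 of 11 stellate cell and fibroblast markers (-0.02). It also held for 3 of 5 B cell and plasmacytoid dendritic cell markers (-0.05). The part of these cells in the members' differences was not tested. The groups did not overlap for 5 members in the lower direction, against 5.33% of all genes, and for 1 in the higher direction, against 5.51%.

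**Figure D1:**
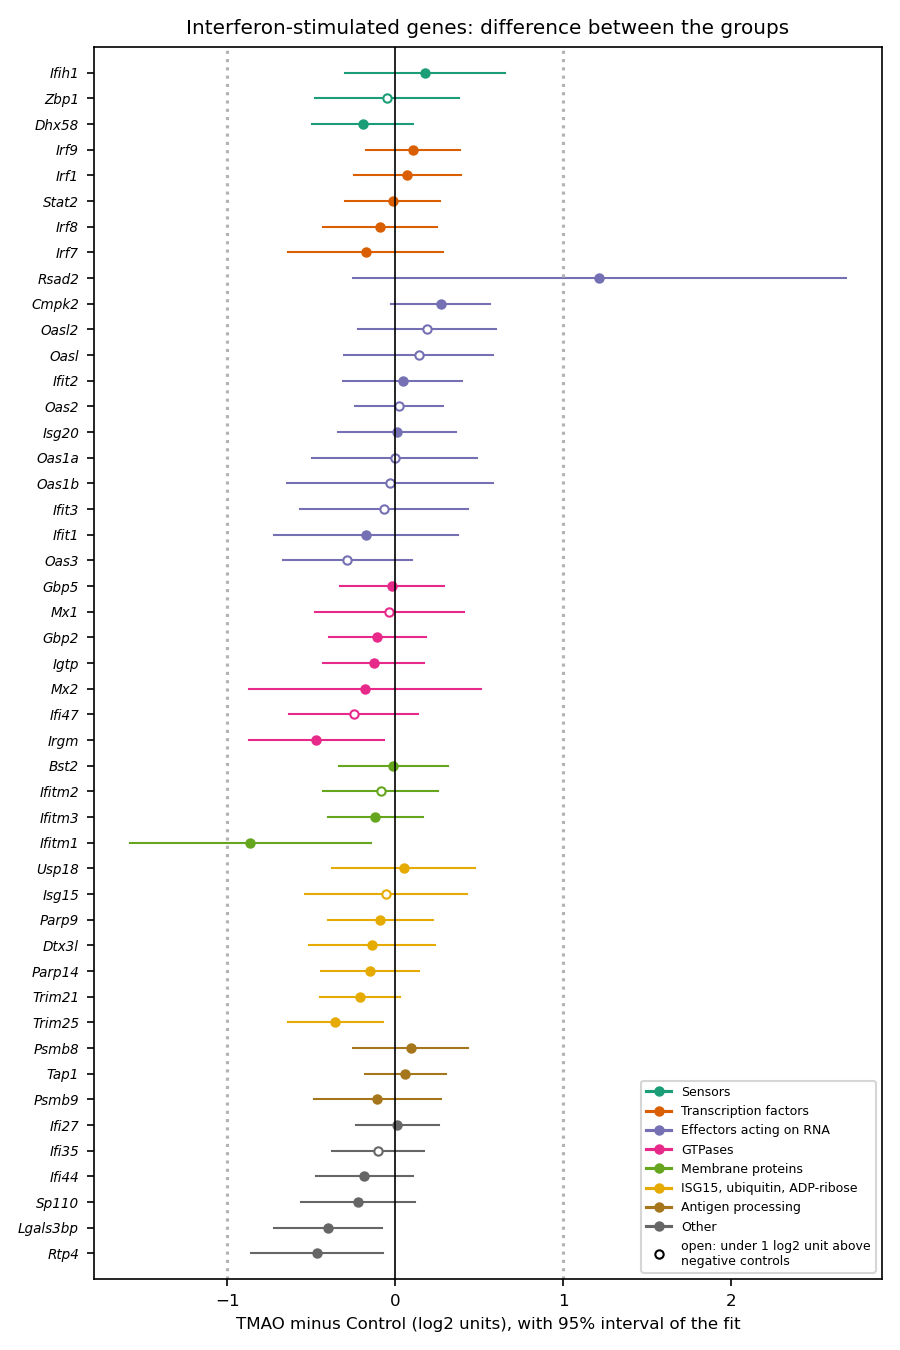
Difference between the groups for each of the 47 measured interferon-stimulated genes, as TMAO minus Control in log2 units, with the 95% interval of the fit. Colours give the role, open points mark the 13 low genes, and dotted lines mark a 2-fold change. Most intervals cross 0, and those of Rsad2 and Ifitm1 are the only ones that reach past a dotted line.

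Under the limma fit, the intervals bound what could have gone unseen. For 33 of the 47 members the 95% interval of the difference lay within 1.5-fold in both directions, against 84.2% of all genes. Within 2-fold it lay for 45 of 47, against 99.0% of all genes, and the 2 exceptions were Rsad2 and Ifitm1. The fit draws each gene's variance toward that of all genes. For the most variable members, such as Rsad2, Ifitm1 and Mx2, the intervals are thus narrower than their own spread would give. Intervals from each gene's own spread were not taken, so the counts within 1.5-fold and 2-fold hold only under this fit. For low members, such an interval bounds the change of the signal and not that of the transcript, since part of the signal is background.

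The sensors of foreign nucleic acid come first in the pathway. Ifih1 encodes MDA5, which detects long double-stranded RNA. Its log2 signals were 5.80, 6.02 and 5.80 on Control replicates 1, 2 and 3 and 5.76, 5.80 and 6.59 on the TMAO replicates. TMAO replicate 3 was the high array, and the other 5 lay close together. The difference was 0.18 ± 0.21 (SE), with an adjusted p of 0.987, and it was -0.09 without TMAO replicate 3. Dhx58 encodes LGP2, a regulator of the same family. It had 6.31, 6.11 and 5.86 in Control and 5.94, 5.90 and 5.85 with TMAO, so the Control arrays spread over the TMAO values and above them. Its difference was -0.19 ± 0.13. Zbp1, a sensor of Z-form nucleic acid, was low, with means of 3.40 in Control and 3.35 with TMAO.

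The transcription factors of the response were measured above the negative controls, all 5 of them. Irf7, the factor that amplifies the induction of interferon alpha genes, had 5.47, 5.86 and 5.80 in Control and 5.13, 5.51 and 5.96 with TMAO. It was lowest on TMAO replicate 1 and highest on TMAO replicate 3, so the TMAO arrays enclosed the Control arrays. Its difference was -0.18 ± 0.20, and it turned to 0.02 without TMAO replicate 1. Irf9, the DNA-binding subunit of the type I complex, had 6.29, 6.55 and 6.49 in Control and 6.40, 6.58 and 6.67 with TMAO. The groups overlapped, and the difference was 0.11 ± 0.12. Stat2, its partner, was flat, at 7.44, 7.31 and 7.48 in Control and 7.39, 7.23 and 7.56 with TMAO. The Stat2 difference was -0.01 ± 0.12, with a 95% interval from -0.30 to 0.27. Irf1, which interferon gamma induces through its GAS, had means of 6.99 ± 0.05 and 7.07 ± 0.25 (SD, n = 3 each). Irf8, a factor of myeloid cells, had 5.57 ± 0.11 and 5.47 ± 0.27.

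Rsad2 was the most variable member. It encodes viperin, an enzyme that turns a nucleotide into a chain terminator of viral RNA synthesis. Its log2 signals were 4.16, 4.19 and 5.79 on Control replicates 1, 2 and 3 and 5.37, 4.89 and 7.53 on the TMAO replicates. Replicate 3 was the high array of each group, and Control replicate 3 lay above TMAO replicates 1 and 2, so the groups overlapped. The Control mean, 4.71, was itself less than 1 log2 unit above the negative controls, and Control replicates 1 and 2 lay close to them. The signals therefore give no size for the difference in transcript. Its pooled SD within the groups was 1.20, the 4th largest among all 15037 genes. The difference in signal of 1.22 ± 0.65 had a 95% interval from -0.25 to 2.68 and an adjusted p of 0.958. It came to 0.41 without TMAO replicate 3 and to 1.76 without Control replicate 3.

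Cmpk2 encodes a mitochondrial nucleotide kinase and is the neighbour of Rsad2 on chromosome 6 in the RefSeq annotation. Its signals were 6.56, 6.54 and 6.39 in Control and 6.62, 6.69 and 6.99 with TMAO. No other member had every TMAO array above the highest Control array. The margin between the nearest arrays was small, and the difference of 0.27 ± 0.13, or 1.21-fold, had an adjusted p of 0.948. It was 0.16 without TMAO replicate 3. The high array of Rsad2 with TMAO, replicate 3, was also that of Cmpk2, while Control replicate 3 was high for Rsad2 and lowest for Cmpk2.

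The other effectors that act on RNA did not move in one direction. Of the 12 measured, Rsad2 and Cmpk2 included, 7 had a higher mean with TMAO and 5 a lower one, with a median difference of 0.02, and 7 were low. Ifit1, which binds foreign RNA ends, had 4.81, 4.71 and 5.61 in Control and 5.13, 4.55 and 4.93 with TMAO. Control replicate 3 was the high array, and the difference was -0.17 ± 0.24, from a TMAO mean of 4.87 that was under the low limit. Ifit2 of the same family had 7.74, 7.63 and 7.20 in Control and 7.42, 7.67 and 7.63 with TMAO. Here Control replicate 3 was the lowest array, the reverse of Ifit1, and the difference was 0.05 ± 0.16. Ifit3, whose promoter is printed above, had 3.77, 4.12 and 3.97 in Control and 3.69, 3.53 and 4.44 with TMAO, around the negative controls. Whether the probes tell close relatives such as the Ifit, Oas, Ifitm and Mx genes apart is not given in the sources used here.

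Active oligoadenylate synthetases make the second messenger that activates RNase L, which cuts RNA. All 6 measured genes of this family were low. Oas1b had 5.04, 4.41 and 4.93 in Control and 4.52, 4.36 and 5.41 with TMAO. Replicate 2 was the lowest array in both groups and TMAO replicate 3 the highest of all, and the difference was -0.03 ± 0.27. Oas1a had 3.85, 3.83 and 4.41 in Control and 3.87, 3.75 and 4.46 with TMAO, again with replicate 3 the high array of each group. The Oas1a difference was 0.00 ± 0.22 (-0.0033 before rounding). Oas3 had 4.28, 4.30 and 4.82 in Control and 4.30, 4.27 and 3.97 with TMAO. In that case replicate 3 was the high array of Control and the low one of TMAO, and the difference of -0.29 ± 0.17 had an adjusted p of 0.958. Leaving out Control replicate 3 brought it to -0.11. Oasl and Oasl2 had differences of 0.14 ± 0.20 and 0.19 ± 0.18, and Oas2 one of 0.02 ± 0.12. Isg20, an exonuclease that degrades RNA, was above the negative controls at means of 7.04 ± 0.10 in Control and 7.05 ± 0.29 with TMAO.

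**Figure D2:**
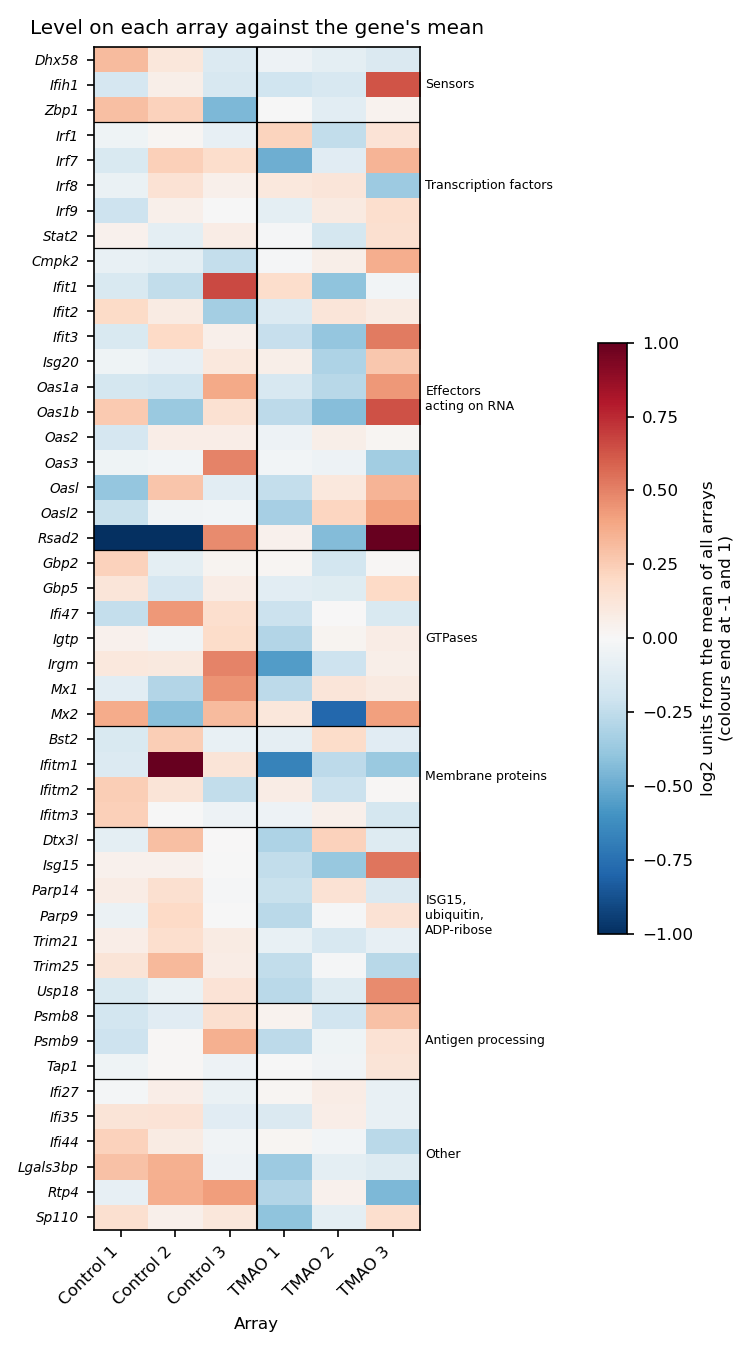
Level of each of the 47 interferon-stimulated genes on each array, in log2 units from the gene's mean over all 6 arrays, ordered by role. TMAO 3 carries most of the strong red cells among sensors and RNA effectors, Control 2 carries that of Ifitm1, and the 2 groups show no block of one colour.

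GTPases of the interferon response were lower in mean with TMAO for all 7 measured, where 51.0% of all genes were. Their median difference was -0.13, 0 passed the adjusted threshold, and the signs of Mx1, Mx2 and Gbp5 turned with 1 array left out. Mx1, a dynamin-like GTPase that blocks viruses, had 3.85, 3.66 and 4.41 in Control and 3.69, 4.08 and 4.05 with TMAO, around the negative controls and with the groups overlapping. Its difference was -0.03 ± 0.20. Mx2, its paralogue, had 6.57, 5.78 and 6.51 in Control and 6.31, 5.41 and 6.60 with TMAO. Replicate 2 was the low array of both groups, by more than the groups differed. The Mx2 difference of -0.18 ± 0.31 turned to 0.17 without TMAO replicate 2. Irgm belongs to the immunity-related GTPases, which in the mouse act on the vacuoles of intracellular pathogens. Its signals were 7.54, 7.53 and 7.94 in Control and 6.88, 7.23 and 7.49 with TMAO. No TMAO array reached the lowest Control array, though TMAO replicate 3 came close. The difference was -0.47 ± 0.18, or 1.38-fold lower, with an adjusted p of 0.893, and it was -0.31 without TMAO replicate 1. Igtp and Ifi47, of the same family, had -0.13 ± 0.13 and -0.25 ± 0.17, the latter from low signals of 4.27, 4.94 and 4.67 in Control and 4.28, 4.50 and 4.35 with TMAO. The guanylate-binding proteins Gbp2 and Gbp5 target membranes of intracellular pathogens. Gbp5 had 8.85, 8.56 and 8.80 in Control and 8.62, 8.60 and 8.92 with TMAO, which overlapped throughout. The differences were -0.02 ± 0.14 for Gbp5 and -0.11 ± 0.13 for Gbp2.

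Among the membrane proteins, Ifitm1 had the lowest difference of all 15037 genes. The Ifitm proteins hinder the fusion of viral and cellular membranes. Ifitm1 signals were 5.34, 6.78 and 5.60 in Control and 4.81, 5.21 and 5.11 with TMAO. All TMAO arrays lay below all Control arrays, and Control replicate 2 lay far above the other 5. TMAO replicate 1 was under the low limit and the TMAO mean, 5.04, was just above it, so part of these signals may be background. The difference was -0.86 ± 0.32, or 1.82-fold lower, with a 95% interval from -1.58 to -0.15 and an adjusted p of 0.877. Without Control replicate 2 it came to -0.43. Macrophage markers were also highest on Control replicate 2. Their mean log2 signal was 5.26 there, and it was 4.99 and 4.90 on Control replicates 1 and 3 and 4.93, 5.0 and 4.78 on the TMAO replicates. Control replicate 2 held the highest of the 6 values for 10 of the 19 markers, Fcer1g, Cd163 and Cd68 among them, while C1qa and C1qc were highest on Control replicate 3 and Tyrobp on TMAO replicate 1. Of the 19, 15 had a lower mean with TMAO, and Tyrobp had a higher one by 0.42 (unadjusted p 0.0473 by limma). The defining markers Adgre1, Ptprc, Itgam and Clec4f were among 9 that were low. The part of these cells in the Ifitm1 difference was not tested.

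Ifitm3 and Bst2 did not share the large difference of Ifitm1. Bst2 encodes tetherin, which holds budding virus at the cell surface. It had 9.95, 10.34 and 10.02 in Control and 10.01, 10.28 and 9.98 with TMAO. Replicate 2 was the highest array of both groups, as it was for Ifitm1, and the difference was -0.01 ± 0.14. Ifitm3 had means of 9.66 ± 0.16 in Control and 9.54 ± 0.11 with TMAO, a difference of -0.12 ± 0.13, and Ifitm2 was low.

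Genes of ISG15, ubiquitin and ADP-ribose transfer had a lower mean with TMAO for 6 of 7, where 51.0% of all genes did. Isg15 encodes a ubiquitin-like protein that is joined to other proteins. It was low, at 4.11, 4.10 and 4.06 in Control and 3.81, 3.68 and 4.60 with TMAO. The Control arrays lay within a narrow band, and TMAO arrays lay on both sides of it. The difference was -0.06 ± 0.21, and it was -0.34 without TMAO replicate 3 and 0.12 without TMAO replicate 2. Usp18, which removes ISG15 and dampens the type I receptor, had means of 7.35 ± 0.15 and 7.40 ± 0.39. Trim25, a ubiquitin ligase that acts on RIG-I, had 8.31, 8.50 and 8.25 in Control and 7.93, 8.16 and 7.90 with TMAO. The groups did not overlap, and replicate 2 was the high array of both. Its difference of -0.36 ± 0.13, or 1.28-fold lower, had the lowest adjusted p of the members, 0.856. Trim21, an intracellular antibody receptor and ubiquitin ligase, had 7.63, 7.73 and 7.64 in Control and 7.48, 7.40 and 7.48 with TMAO. The groups were apart by a small margin and each was tight, with a pooled SD of 0.05. The Trim21 difference was -0.21 ± 0.11, with an adjusted p of 0.954. Dtx3l and Parp9, which form one complex, had -0.14 ± 0.17 and -0.09 ± 0.14, and Parp14, a further ADP-ribosyltransferase, had -0.15 ± 0.13.

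Antigen processing genes lay well above the negative controls and overlapped between the groups. Psmb8, a catalytic subunit of the immunoproteasome, had 8.33, 8.40 and 8.67 in Control and 8.55, 8.33 and 8.81 with TMAO. Replicate 3 was the high array of both groups, and the difference was 0.09 ± 0.15. For Psmb9, another such subunit, the difference was -0.11 ± 0.17, and for Tap1, which carries peptides into the endoplasmic reticulum, it was 0.06 ± 0.11.

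Of the remaining members, Ifi27, a mitochondrial protein, was steady on every array, at 11.14, 11.23 and 11.10 in Control and 11.18, 11.24 and 11.09 with TMAO. Rtp4, a receptor chaperone, had 6.40, 6.85 and 6.90 in Control and 6.19, 6.52 and 6.03 with TMAO. TMAO replicate 2 lay above Control replicate 1, so the groups overlapped. The difference was -0.47 ± 0.17, or 1.38-fold lower, with an adjusted p of 0.885. Lgals3bp, a secreted glycoprotein, had 7.27, 7.33 and 6.92 in Control and 6.61, 6.88 and 6.84 with TMAO. Control replicate 3 lay just above the highest TMAO array, and the difference of -0.40 ± 0.14, or 1.32-fold lower, had an adjusted p of 0.859. Sp110, of the nuclear bodies, had 7.35, 7.24 and 7.31 in Control and 6.79, 7.10 and 7.36 with TMAO. The TMAO arrays spread widely around the tight Control arrays, and the difference was -0.22 ± 0.15. Ifi44 had -0.18 ± 0.13 and the low Ifi35 had -0.10 ± 0.12.

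**Figure D3:**
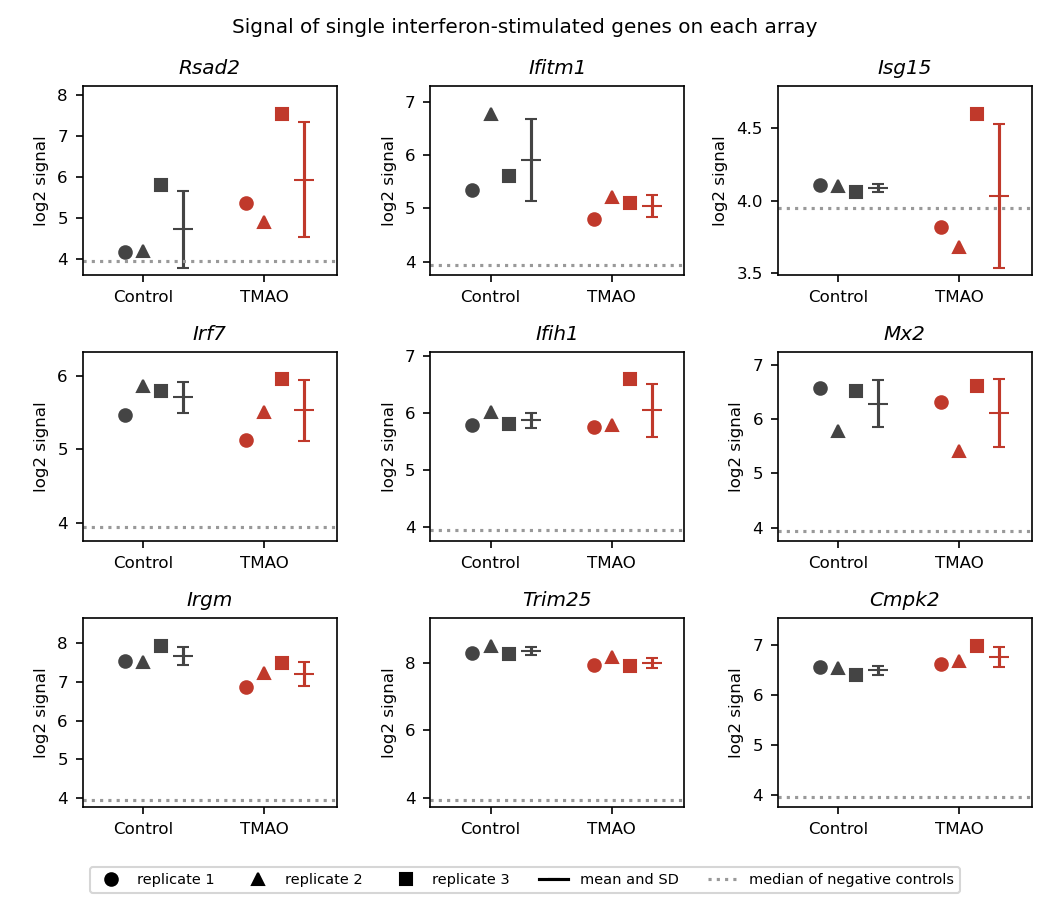
Log2 signal of 9 members on each array, with the mean and SD of each group (n = 3) and the median of the negative controls as a dotted line. Vertical axes differ between panels. Rsad2 is highest on replicate 3 of each group, Ifitm1 on Control replicate 2, Mx2 is lowest on replicate 2 of each group, and Isg15 lies around the negative controls.

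The spread between arrays of one group was larger for the members than for genes at large. A large spread of this set between cultures was known when it was chosen, so the values are a description and no independent finding. The median pooled SD was 0.21 log2 units over the 47 members and 0.17 over all genes. Among genes above the negative controls it was 0.19 over the 34 members and 0.16 over all. The 10.0% of all genes with the largest pooled SD held 13 members. These were Rsad2, Ifitm1, Mx2, Oas1b, Ifit1, Ifit3, Oas1a, Isg15, Ifih1, Irf7, Oasl, Mx1 and Zbp1, of which 7 were low. At the other end, Trim21, Tap1 and Ifi27 had pooled SDs of 0.05, 0.07 and 0.07, at percentiles 2.41, 5.79 and 7.95 of all genes. Members with the ISRE letters in their promoter window had a median pooled SD of 0.21 (25 genes), and those without had one of 0.18 (12 genes). The most variable 10.0% of genes held 6 of the 25 and 2 of the 12. Their median deviations on TMAO replicate 3 from each gene's mean, 0.07 and 0.14, were ordered the other way. Members without a window, Ifitm1, Mx2, Ifit1, Isg15 and Zbp1 among them, are in neither group. A link between the letters and the spread was not tested.

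TMAO replicate 3 held the highest of the 6 values for 19 of 47 members, against 22.7% of all genes. Replicates 1 and 2 of the TMAO group held it for 1 member each, against 13.8% and 12.4% of all genes. Control replicates 1, 2 and 3 held it for 7, 12 and 7, against 16.2%, 13.6% and 21.2%. The 19 members highest on TMAO replicate 3 were Ifih1, Irf7, Irf9, Stat2, Ifit3, Isg20, Oas1a, Oas1b, Oasl, Oasl2, Rsad2, Cmpk2, Mx2, Gbp5, Isg15, Usp18, Psmb8, Tap1 and Sp110. Set against each gene's mean over all arrays, the members averaged -0.02, 0.05 and 0.08 on Control replicates 1, 2 and 3 and -0.14, -0.09 and 0.13 on the TMAO replicates. Without Rsad2 the averages were 0.00, 0.08 and 0.07 in Control (0.0023 for replicate 1) and -0.15, -0.09 and 0.09 with TMAO. TMAO replicate 1 was thus the lowest array and TMAO replicate 3 the highest, in the same group. Hepatocyte markers averaged -0.04, 0.01 and 0.17 in Control and -0.19, -0.06 and 0.12 with TMAO, likewise lowest on TMAO replicate 1 and high on replicate 3 of both groups. Their part was not tested. RNA effectors averaged 0.41 on TMAO replicate 3, and the membrane proteins -0.16. Without TMAO replicate 3 the median pooled SD of the members was 0.17, and without replicate 3 of both groups it was 0.16. The median over all genes was not taken for these sets of arrays, so whether the members' larger spread remained was not tested. The part of the hybridisation and labelling controls, also highest on this array, was not tested.

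**Figure D4:**
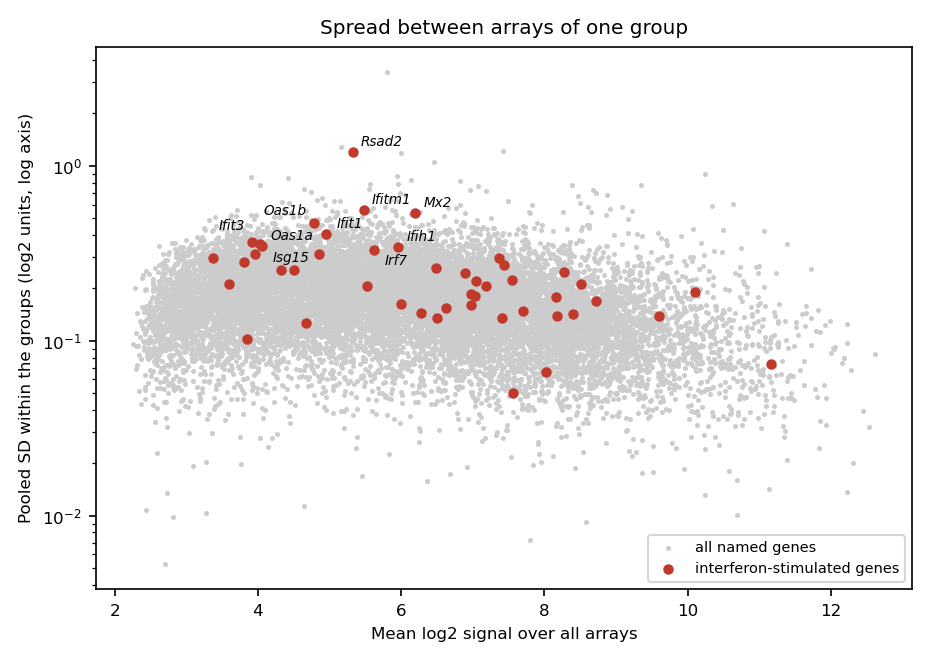
Pooled SD within the groups (log axis) against mean log2 signal for the 47 interferon-stimulated genes and all 15037 named genes, with the 10 most variable members named. Rsad2 stands at 1.20, above nearly all genes, and members reach from 0.05 upwards across the range of signals.

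Ligands and receptors of the pathway were measured beside the members. Of 11 interferon genes listed, 6 were measured and 4 of them were low. Ifnb1, interferon beta, had 4.49, 4.62 and 4.62 in Control and 4.61, 4.87 and 4.77 with TMAO, near the negative controls, with a difference of 0.17 ± 0.12. Ifng, interferon gamma, lay below the median of the negative controls in both groups, at means of 3.38 and 3.23. Differences of Ifna4, Ifna5 and Ifnk were -0.22 ± 0.15, -0.31 ± 0.19 and -0.28 ± 0.17. Ifnk was low, with means of 3.57 and 3.29, below the median of the negative controls. The TMAO mean of Ifna5, 4.83, was under the low limit. Ifnar2 was not analysed here. All 8 measured receptor and JAK-STAT genes lay above the negative controls, and for each the fit's 95% interval of the difference lay within 1.5-fold. Ifnar1, a chain of the type I receptor, had means of 8.42 ± 0.07 in Control and 8.30 ± 0.06 with TMAO, a difference of -0.12 ± 0.11. Tyk2, the kinase bound to it, had 6.71, 6.73 and 6.70 in Control and 6.51, 6.30 and 6.52 with TMAO. The groups did not overlap, and the difference of -0.27 ± 0.11 had an adjusted p of 0.909. Jak1 and Ifngr2, of both pathways and of the gamma receptor, had 0.10 ± 0.11 and -0.18 ± 0.12.

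In all, 56 of 73 listed pathway genes outside the members were measured, and 0 passed the adjusted threshold. At an unadjusted p under 0.05 by limma 5 were lower and 0 higher, where 2.48% and 3.01% of all genes were. A lower mean with TMAO was found for 38 of 56, against 51.0% of all genes, and the median difference was -0.09, as it was for the members. The lowest adjusted p, 0.581, belonged to Apol3l1, listed as Apol3, of the apolipoprotein L family. It had 7.66, 7.91 and 7.88 in Control and 7.39, 7.41 and 7.15 with TMAO. The groups were well apart, and the difference was -0.50 ± 0.13, or 1.41-fold lower. Among feedback inhibitors, Socs3 had 5.19, 5.01 and 5.30 in Control and 4.69, 4.77 and 4.72 with TMAO, again without overlap. The TMAO mean, 4.73, was under the low limit, and the difference of -0.44 ± 0.12 had an adjusted p of 0.600. Socs1, which interferons induce and which blocks the JAK kinases, had -0.21 ± 0.12, and Pias1, another inhibitor, had -0.22 ± 0.14. The chemokine gene Cxcl9, a target of interferon gamma, had 6.65, 6.93 and 7.01 in Control and 6.11, 6.70 and 6.40 with TMAO. TMAO replicate 2 lay within the Control range, and the difference of -0.46 ± 0.17 had an adjusted p of 0.876. Tnfsf10, the death ligand TRAIL, had -0.44 ± 0.19. B2m, the light chain of class I molecules, was steady, with a difference of 0.02 ± 0.10. Of the genes that lead to interferon production, Ikbke, Tlr3, Irf3 and Myd88 had -0.31 ± 0.16, -0.28 ± 0.17, 0.04 ± 0.12 and 0.00 ± 0.12 (-0.0034 for Myd88 before rounding), and the low Tlr9 had 0.16 ± 0.13.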

How the data were processed

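The log2 signals of the series' value table were used as the authors deposited them, with 1 value for each probe set on each of 6 Affymetrix arrays. Total RNA was made into biotin-labelled cRNA, per the labels' protocols. Limma is listed, without version or role, in the submitters' processing notes. The sources used here do not give the background correction, normalization or probe summary. A further table, whose 6 columns no label ties to a sample, was not used. Of 24871 probe sets, 1683 controls were left out, and 15049 of the others had 1 gene symbol in the platform annotation. A gene with several probe sets (10 genes) was represented by the brightest, leaving 15037 genes. Members were matched by symbol or by RefSeq synonym.

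The groups were compared by limma 3.58.1 in R 4.3.3 (lmFit and eBayes, group as the only term, all 6 arrays, two-sided). Adjusted p-values follow Benjamini and Hochberg over the 15037 genes, with a threshold of 0.05, and the fit was tested on simulated data. With changes set into 200 genes there, 32.8% of 1.5-fold and 76% of 2-fold ones passed that threshold. These genes were drawn from all 15037, whose median pooled SD of 0.17 was under the members' 0.21. With 200 changed genes the adjusted threshold is also easier to pass than in the data, where 4 genes passed. The shares may thus be too high for the members. Changes of such size could thus go uncalled. Errors of differences are SE of the fit, in which eBayes draws each gene's variance toward that of all genes. They are smaller than a gene's own spread would give for the most variable members, such as Rsad2 and Ifitm1. For the tightest, such as Trim21, they are larger. Lists carry no test. Values on every array are printed for the 12 members of smallest unadjusted p, the 10 of largest pooled SD, the brightest of each role, and Isg15, Mx1, Irf7, Irf9 and Stat2. Of each pathway list the 3 genes of smallest p, the brightest, Ifnar1 and Irf3 are named, and Ifng and the single markers were added after their values were seen. Members, lists and tests were chosen with earlier results of these data known. Alternatives left out each array, changed the normalization, the probe set rule, the filter or the variance model, or took the replicate number as a block. The number of arrays limits the precision.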

Additional observations from a re-analysis of the deposited data

How the results depend on the processing

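The adjusted threshold was passed by 0 of 47 members and 0 of 56 pathway genes in limma under each of the 14 alternatives, with lowest adjusted p of 0.335 and 0.271. The count of members lower at an unadjusted p under 0.05 was 5, and with 1 array left out it ran from 0 to 6. It was 6 with quantile normalization and with array weights, and 7 without replicate 3 of both groups. The count of members higher was 0, and with 1 array left out it ran from 0 to 2. It was 1 with the replicate number as a block and 1 without replicate 3 of both groups. The gene called with the replicate block was Rsad2, and its adjusted p over all genes was then 0.335. Members with a lower mean numbered 33, from 25 to 35 with 1 array left out and 37 with array weights. They were 19 of 29 where the fit took only genes no dimmer than the median gene, so that fewer were tested. The median difference ran from -0.13 to -0.01 and the median pooled SD from 0.16 to 0.23. Deviations of same-numbered arrays from their group means correlated by 0.13, 0.0981 and -0.0109 across all genes, which did not establish a pairing. These correlations were not taken over the members alone. Some members, such as Rsad2, Mx2 and Bst2, shared a high or low replicate number between the groups, and others, such as Oas3, did not. Leaving out replicate 3 of both groups was chosen after seeing the data, and so were the counts of members by mean and by unadjusted p.

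Differences of 21 members kept their sign under each alternative run. With 1 array left out the sign of 25 members and of 3 of the 21 named pathway genes turned, and the cause was not tested. Of the other 22 members, 18 had a difference that moved by over 1.5 times with 1 array left out. Ranges of those that turned were -0.11 to 0.11 for Bst2, -0.12 to 0.0375 for Gbp5, -0.0216 to 0.0546 for Ifi27, -0.0919 to 0.32 for Ifih1, -0.34 to 0.11 for Ifit1, -0.11 to 0.16 for Ifit2, -0.34 to 0.11 for Ifit3, -0.23 to 0.016 for Ifitm2 and -0.0197 to 0.21 for Irf1. They were -0.39 to 0.025 for Irf7, -0.17 to 0.0655 for Irf8, -0.34 to 0.12 for Isg15, -0.12 to 0.17 for Isg20, -0.19 to 0.18 for Mx1, -0.43 to 0.17 for Mx2, -0.22 to 0.19 for Oas1a and -0.36 to 0.17 for Oas1b. The other members had -0.0541 to 0.0623 for Oas2, -0.0172 to 0.32 for Oasl, -0.18 to 0.0248 for Parp9, -0.0308 to 0.21 for Psmb8, -0.23 to 0.0443 for Psmb9, -0.0992 to 0.0687 for Stat2, -0.17 to 0.20 for Usp18 and -0.29 to 0.0871 for Zbp1. The pathway genes had -0.0187 to 0.0473 for Irf2, -0.0481 to 0.10 for Irf3 and -0.0828 to 0.0484 for Myd88. Without replicate 3 of both groups the sign turned for B2m (-0.0018), Bst2 (0.0021), Ifih1 (-0.13), Ifit1 (0.0838), Ifit2 (-0.14), Irf2 (-0.0422), Irf8 (0.0688), Isg20 (-0.0639), Mx1 (0.13), Oasl (-0.0152), Tap1 (-0.0003) and Usp18 (-0.0903). With array weights it turned for Ifih1 (-0.0132), Ifit2 (-0.0328), Irf2 (-0.0341), Isg20 (-0.03), Mx1 (0.0961), Oasl (-0.0302) and Usp18 (-0.0289). With quantile normalization it turned for Ifi27 (-0.0065), Irf2 (-0.0215), Isg20 (-0.0063) and Oas1a (0.0166), and with median centring for Myd88 (0.0062) and Oas1a (0.0062). Differences of the 13 low members are bounded by their closeness to the negative controls.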
